A study of Homo sapiens with 6 samples.

Results

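The collagen hydroxylases and lysyl oxidases are the enzymes that modify and cross-link newly made collagen, and 10 of their genes were followed here among the 21776 genes of the count table: P4HA1, P4HA2 and P4HA3, PLOD1, PLOD2 and PLOD3, and LOX, LOXL1, LOXL2 and LOXL4. They were chosen by gene symbol, and all 10 are in the table. The measurements are RNA-seq libraries of an unmodified (wild-type) human oral squamous cell carcinoma line, an established line of tumour cells labelled as SCC25, kept for 12 h under hypoxia (1% O2, 5% CO2, balance N2) or under normoxia (5% CO2 in air), with 3 libraries per condition. The study's figure legend for the pathways enriched under hypoxia names SCC9, another line of this kind. Its results text on these transcripts names no single line. The libraries held 30186813, 36076088 and 32272716 counted reads under hypoxia and 37278703, 29637189 and 29981208 under normoxia. The labels do not say whether the replicates were separate cultures, so the p-values measure the spread between these libraries, which may be technical.

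Collagen chains are modified in the endoplasmic reticulum before they fold. Prolyl 4-hydroxylase, built from a catalytic alpha subunit (P4HA1, P4HA2 or P4HA3) and the beta subunit P4HB, makes the hydroxyproline that keeps the triple helix stable at body temperature, and the lysyl hydroxylases PLOD1, PLOD2 and PLOD3 make the hydroxylysine that carries sugars and sets the kind of cross-link. Both families use molecular oxygen, iron, alpha-ketoglutarate and ascorbate. Outside the cell, the copper-dependent lysyl oxidases (LOX and its relatives LOXL1, LOXL2, LOXL3 and LOXL4) oxidise lysine and hydroxylysine with molecular oxygen, which starts the cross-links between fibrils. P4HA1, P4HA2, PLOD2 and LOX are well known targets of the hypoxia-inducible factors, and the hydroxylases are relatives of the enzymes that mark these factors for degradation.

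The labels were checked first. All 14 genes of a hypoxia response list passed the edgeR quasi-likelihood test as higher under hypoxia, with log2-fold changes from 0.47 up to 6.69 for EGLN3. At the same threshold, an adjusted p under 0.05, 39.2% of all genes tested were higher. This list was chosen with earlier results of these data known. Of 10 markers of squamous epithelium, 9 had over 3 counts in every library, among them TP63 and KRT5; the basal keratin KRT14 had 1 count in all 6 libraries together. The summed level of this list was 2460, 2590 and 2500 CPM (counts per 1000000 reads of the TMM-adjusted library total) under hypoxia and 1573, 1600 and 1759 CPM under normoxia, and ITGB4, its most abundant gene, gave 1195 and 300.9 on average. By the same test, ITGB4, CDH1, DSG3 and KRT17 were higher, KRT5 (-0.18), EPCAM (-0.35), SFN (-0.80) and ITGA6 (-0.68) were lower on the log2 scale, and TP63 did not pass. Fibroblasts are the main source of these enzymes in tissue, so their markers were read too. In the summed level, the 10 fibroblast markers reached 47.5 to 53.3 CPM under hypoxia and 21.9 to 24.6 under normoxia, of which ACTA2 alone gave 27.4 and 16.7 on average and COL1A1, which is also on the list of collagen chains below, 18.0 and 3.76. The defining fibroblast genes PDGFRA, DCN, THY1, COL1A2 and COL3A1 had at most 9 counts in any library, and LUM had 8 to 27 counts under hypoxia and 1 or 2 under normoxia. FAP had 95, 93 and 109 counts under hypoxia and 59, 52 and 74 under normoxia (log2-fold change 0.61, edgeR adjusted p = 0.0277), and PDGFRB had 24, 19 and 20 against 13, 7 and 11 (0.96, edgeR adjusted p = 0.0507, not past the threshold). ACTA2 and COL1A1 were also higher. Of 6 endothelial markers, CDH5 alone exceeded 3 counts in every library (log2-fold change 1.14, edgeR adjusted p = 0.025), and their sum was 1.32 to 1.70 CPM under hypoxia and 0.296 to 0.744 under normoxia. Of the leukocyte markers, 2 exceeded 3 counts in every library, and CD68 made up most of their sum of 33.6 to 39.6 CPM under hypoxia and 33.0 to 35.9 under normoxia. The other, CD14, had 193, 203 and 185 counts under hypoxia and 32, 21 and 48 under normoxia and was higher (log2-fold change 2.45, edgeR adjusted p = 7.27e-08), while CD68 did not pass. The endothelial gene CLDN5 was not listed, PTPRC, CD3E and LYZ had at most 2 counts in a library, and the part of such cells in the results below was not tested.

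Under hypoxia, transcripts of the collagen hydroxylases and lysyl oxidases rose in most members and fell in 1. In such bulk libraries, fewer cells that express a gene and less RNA per cell cannot be told apart. Of the 10 genes, 9 passed the filter on low counts. With the adjusted p of the edgeR quasi-likelihood test held under 0.05, 7 of the 9 were higher, namely P4HA1, P4HA2, PLOD1, PLOD2, LOX, LOXL2 and LOXL4; PLOD3 was lower, and LOXL1 did not pass. Of all 14255 genes tested, 39.2% were higher and 38.5% lower at this threshold, 77.8% in all. With a log2-fold change of at least 1 also required, 6 members were higher and 0 lower, against 19.9% and 10.5% of all genes. P4HA2 fell just short of that size, with 0.98. Over the 9 genes the median log2-fold change came to 1.65, and over all genes tested to 0.023. In 8 of the 9 genes the hypoxia and normoxia libraries did not overlap, 7 of them higher and 1 lower, as in 80.5% of all genes (40.6% higher and 39.9% lower). Changes ran from an 11.4-fold increase (LOX) to a 1.42-fold decrease (PLOD3), and the LOX, PLOD2, LOXL4 and P4HA1 changes exceeded those of 97.6%, 96.1%, 94.8% and 94.2% of the genes tested.

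**Figure D1:**
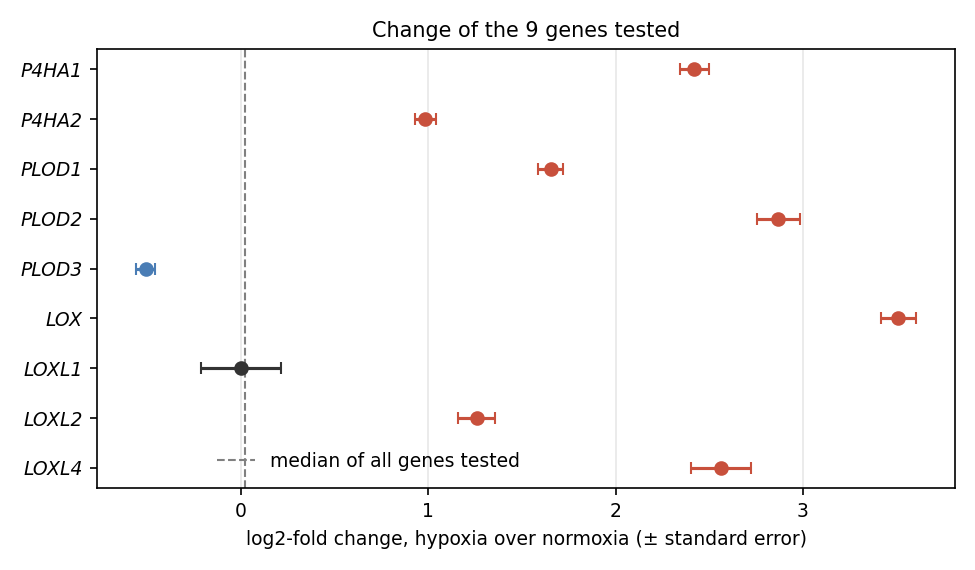
Log2-fold change of hypoxia over normoxia (horizontal axis) for the 9 genes tested, with the standard error as bars; red marks genes that were higher, blue lower and dark grey not past the threshold (edgeR quasi-likelihood test, 3 libraries per condition), and the dashed line is the median of all genes tested. LOX stands furthest right at 3.51, PLOD3 lies left of 0 at -0.51, and LOXL1 lies at 0.

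Promoter sequences are shown for the genes with the largest increases of each family and for the gene that fell, because the core of the hypoxia response element, the short sequence that hypoxia-inducible factors bind, was searched in them. RefSeq promoters (GRCh38.p14, 250 bases before to 50 after each start) were taken for 8 of the 10 members, matched by symbol and Entrez number. No promoter of P4HA3 or of LOXL2, which rose, was searched, so the counts below leave these genes out. The letters ACGTG and GCGTG were searched on both strands. Counted per promoter, they were found in 6 of the 10 promoters of these members and in 48.4% of all 35116 promoters of the same length. The 6 belong to 4 of the 8 genes, P4HA1, PLOD1, PLOD2 and LOX, the last with 3 promoters. The windows of P4HA2, PLOD3, LOXL1 and LOXL4 hold neither, and P4HA2 and LOXL4 are among the genes that rose. The sequences below are the 250 bases before the start on the minus strand of chr10:73096867-73097116 (P4HA1), chr3:146161185-146161434 (PLOD2), chr5:122078260-122078509 (LOX, its first listed start) and chr7:101217582-101217831 (PLOD3), written from 5′ to 3′ in the sense of the gene, with the matches on either strand in capitals.
P4HA1: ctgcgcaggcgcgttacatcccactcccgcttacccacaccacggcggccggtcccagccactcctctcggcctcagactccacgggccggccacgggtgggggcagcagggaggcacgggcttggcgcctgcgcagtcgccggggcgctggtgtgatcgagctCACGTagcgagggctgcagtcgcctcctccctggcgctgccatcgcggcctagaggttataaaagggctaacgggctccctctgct
PLOD2: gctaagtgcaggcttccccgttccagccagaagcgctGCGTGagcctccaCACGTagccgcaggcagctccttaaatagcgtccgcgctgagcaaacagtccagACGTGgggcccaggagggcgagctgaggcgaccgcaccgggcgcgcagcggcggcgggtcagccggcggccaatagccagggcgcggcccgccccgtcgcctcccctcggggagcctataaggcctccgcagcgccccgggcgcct
LOX: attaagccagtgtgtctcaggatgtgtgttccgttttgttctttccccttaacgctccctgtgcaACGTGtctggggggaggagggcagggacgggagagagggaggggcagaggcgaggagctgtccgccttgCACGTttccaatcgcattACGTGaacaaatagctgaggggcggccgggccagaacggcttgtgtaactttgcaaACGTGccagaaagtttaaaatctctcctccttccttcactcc
PLOD3: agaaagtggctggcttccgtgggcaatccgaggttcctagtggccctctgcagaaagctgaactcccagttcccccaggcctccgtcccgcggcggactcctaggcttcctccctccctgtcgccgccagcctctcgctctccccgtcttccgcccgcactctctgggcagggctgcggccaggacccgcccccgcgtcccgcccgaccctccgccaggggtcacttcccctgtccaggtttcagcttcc
The P4HA1 promoter held 1 match, which begins 86 bases before the start. In PLOD2 there were 3, at 213, 200 and 146 bases before it. The LOX window held 4, at 185, 116, 98 and 42 bases before it, all ACGTG. By comparison, 10.1% of all promoters held 3 or more matches. The other 2 starts listed for LOX, whose windows share most of their bases, held 2 matches each, and PLOD1 held 2 of the letters GCGTG, at 68 and 25 bases before its start. A match describes the sequence and shows no binding.

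Among the alpha subunits of prolyl 4-hydroxylase, P4HA1 rose most. Its level was 419.9, 444 and 451 CPM in the hypoxia libraries and 76.4, 74.7 and 94.5 CPM in the normoxia libraries. Every hypoxia library lay far above every normoxia library, and the log2-fold change was 2.42 (SE 0.076, adjusted p = 3.99e-14 in the edgeR quasi-likelihood test; SE is the standard error). P4HA2, which encodes the second widely expressed alpha subunit, had 171, 159 and 167 CPM under hypoxia and 79.35, 83.1 and 89.0 CPM under normoxia. These groups did not overlap either, with a log2-fold change of 0.98 (SE 0.058, edgeR adjusted p = 5.79e-11). P4HA3 had 2 counts in normoxia replicate 1 and 0 in the other 5 libraries, where 3 counts correspond to 0.0806 to 0.105 CPM, so that no level and no change of P4HA3 was detectable at this depth.

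Because P4HA1 and P4HA2 changed by different amounts, the make-up of the family moved. In FPKM, which are scaled by gene length and so allow genes to be set side by side, P4HA1 gave 81.35%, 83.3% and 82.8% of the summed level of the 3 alpha subunits under hypoxia and 63.1%, 61.5% and 65.4% under normoxia. P4HA2 gave the rest. The mean share of P4HA1 was thus 82.5% ± 0.996 (SD, n = 3) against 63.4% ± 1.94 (SD, n = 3), with no overlap between the libraries (exact two-sided permutation p = 0.1, or 0.109 adjusted over 12 such comparisons, where 3 libraries against 3 cannot give less than 0.1). The beta subunit P4HB, which also acts alone as a protein disulfide isomerase, changed far less, from 904 ± 28.2 to 1111 ± 35.7 CPM (SD, n = 3), a log2-fold change of 0.30 (SE 0.050, edgeR adjusted p = 3.73e-05). The summed FPKM of the alpha subunits was 0.421, 0.430 and 0.419 of that of P4HB under hypoxia and 0.123, 0.118 and 0.138 of it under normoxia, 3.36-fold higher on average, again without overlap (two-sided exact permutation test, p = 0.1). Alpha subunit transcripts stayed below those of P4HB in all 6 libraries.

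The lysyl hydroxylases moved in opposite directions. PLOD2, whose product hydroxylates the telopeptides of fibrillar collagen, had 652, 799.6 and 746 CPM under hypoxia and 89.8, 84.2 and 127 CPM under normoxia. Even the lowest hypoxia library stood well clear of the highest normoxia library, and the log2-fold change was 2.87 (SE 0.12, edgeR adjusted p = 6.84e-13). PLOD1, which hydroxylates lysines of the helical part, had 425, 452 and 459 CPM under hypoxia and 129.9, 138.5 and 157 CPM under normoxia, a log2-fold change of 1.65 (SE 0.065, edgeR adjusted p = 4.95e-13). Its libraries did not overlap between conditions. PLOD3, which also transfers sugars to hydroxylysine, had 212, 212 and 215 CPM under hypoxia and 311, 305 and 293.5 CPM under normoxia. All 3 hypoxia libraries were below all 3 normoxia libraries, and the log2-fold change was -0.51 (SE 0.050, edgeR adjusted p = 4.55e-08).

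As a result, the order of the lysyl hydroxylases differed between the conditions. Under normoxia PLOD3 was the most abundant per length, with 60.2% ± 4.01 (SD, n = 3) of the summed FPKM of the family, and PLOD2 gave 14.4% ± 2.72 (SD, n = 3). Under hypoxia PLOD2 gave 46.3% ± 2.03 (SD, n = 3) and PLOD3 18.6% ± 1.11 (SD, n = 3), while PLOD1 went from 25.4% ± 1.54 to 35.1% ± 0.972 (SD, n = 3), a difference of 9.72 percentage points that was 6.11 without division by gene length. None of these shares overlapped between the conditions, and each had p = 0.1 in the two-sided exact permutation test. The summed FPKM of the family was 384, 439.6 and 418 under hypoxia and 175, 168 and 184.5 under normoxia, 2.35-fold higher on average, so the shares changed within a larger total.

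**Figure D2:**
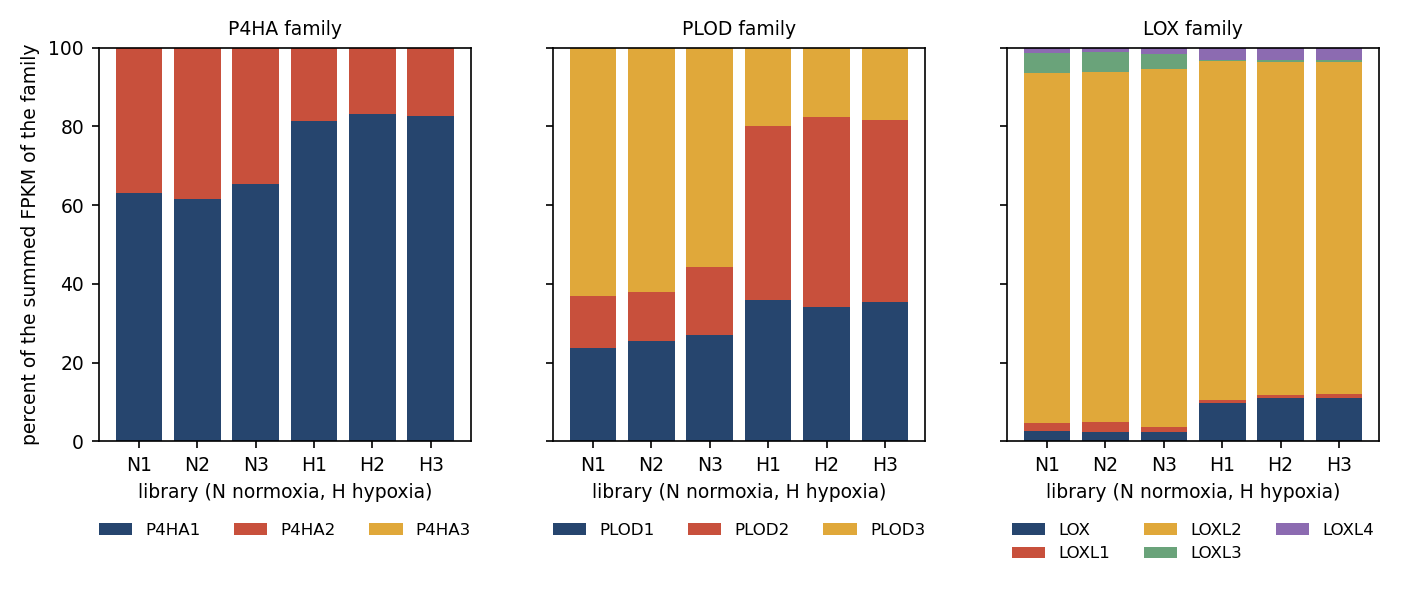
Share of each gene (percent, vertical axis) in the summed FPKM of its family in each of the 6 libraries (N1 to N3 normoxia, H1 to H3 hypoxia). P4HA1 rises from about 63.4% to 82.5% of its family, PLOD2 and PLOD3 exchange places, and LOXL2 gives at least 84.4% of the LOX family throughout; P4HA3 is too low to be seen.

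In the lysyl oxidase family, LOX had the largest change of all members. Its level was 76.3, 88.0 and 86.6 CPM under hypoxia and 6.93, 6.535 and 8.59 CPM under normoxia. All 3 hypoxia libraries were far above all 3 normoxia libraries, and the log2-fold change was 3.51 (SE 0.093, edgeR adjusted p = 7.78e-15). LOXL4 rose from a lower level, with 20.1, 21.5 and 21.3 CPM under hypoxia and 3.225, 2.52 and 4.935 CPM under normoxia (log2-fold change 2.56, SE 0.16, edgeR adjusted p = 1.51e-10). LOXL2, which acts on collagen IV of basement membranes, was the most abundant gene of this family in both conditions. It had 475, 471 and 469.9 CPM under hypoxia, a spread of 2.77 CPM (SD, n = 3), and 175, 169.7 and 247 CPM under normoxia. The groups did not overlap, with a log2-fold change of 1.26 (SE 0.099, edgeR adjusted p = 2.65e-09).

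LOXL1, known for its role in elastic fibres, had 2.98, 2.635 and 4.47 CPM under hypoxia and 3.225, 3.60 and 3.245 CPM under normoxia. The groups overlapped, and the log2-fold change of 0.00055 had a 95% confidence interval from -0.45 to 0.45 (edgeR adjusted p = 0.998), so that changes within this interval could not be resolved with 91 to 145 counts per library. LOXL3, the remaining gene of the family, was lower under hypoxia, with 88, 126 and 123 counts against 518, 381 and 436 (log2-fold change -2.06, SE 0.13, edgeR adjusted p = 2.13e-10). Despite these different changes, LOXL2 gave 86.2%, 84.7% and 84.4% of the summed FPKM of the 5 genes under hypoxia and 89.0%, 89.1% and 90.8% under normoxia. The share of LOX was 10.6% ± 0.750 under hypoxia and 2.37% ± 0.132 under normoxia (SD, n = 3; two-sided exact permutation test, p = 0.1).

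**Figure D3:**
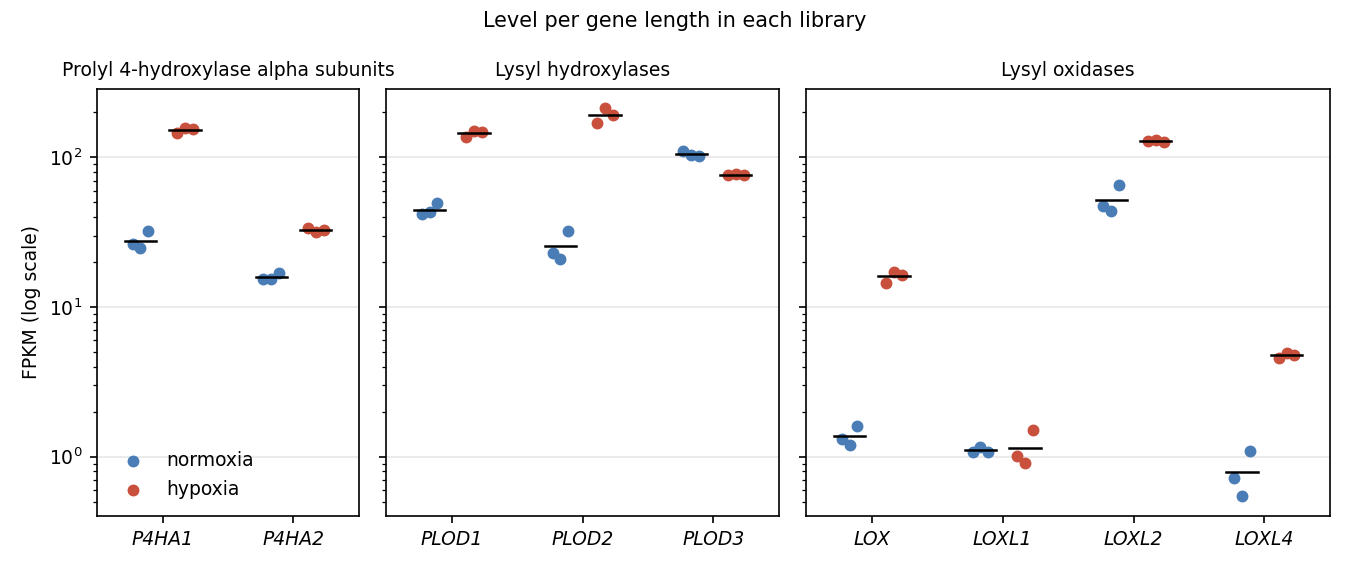
FPKM of each gene in each library (log scale, vertical axis), blue for normoxia and red for hypoxia, with the mean of 3 libraries as a black line; P4HA3, at 0 in 5 of 6 libraries, is left out. The red points of P4HA1, P4HA2, PLOD1, PLOD2, LOX, LOXL2 and LOXL4 lie above the blue ones, those of PLOD3 lie below, and those of LOXL1 overlap.

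Per gene length, the members covered levels from 1.15 to 192 FPKM under hypoxia and from 0.785 to 106 under normoxia, P4HA3 aside. The order of mean FPKM under normoxia was PLOD3 (106), LOXL2 (52.2), PLOD1 (44.7), P4HA1 (27.7), PLOD2 (25.5), P4HA2 (15.9), LOX (1.37), LOXL1 (1.11) and LOXL4 (0.785). Here the libraries of LOXL2 and PLOD1 overlapped, as did those of P4HA1 and PLOD2 and those of LOXL1 and LOXL4. Under hypoxia the order was PLOD2 (192), P4HA1 (153), PLOD1 (145), LOXL2 (129), PLOD3 (76.7), P4HA2 (32.6), LOX (16.0), LOXL4 (4.77) and LOXL1 (1.15). Of these neighbours only P4HA1 and PLOD1 overlapped. LOX, the gene with the largest change, therefore stayed among the less abundant members in both conditions. By limma on log2(FPKM + 1), 7 members were again higher and PLOD3 lower (of 10976 genes, 36.7% were higher and 44.3% lower, 81% in all), and LOXL1 did not pass (adjusted p = 0.891); the change of low genes is understated on this scale, as for LOXL4 with 1.70.

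Other enzymes and partners that work on the same collagen chains changed in both directions. Of 10 genes, 8 were tested, of which 3 were higher and 4 lower, with a median log2-fold change of -0.21. These counts are close to the shares over all genes tested (39.2% higher and 38.5% lower), against which the counts of the lists that follow are also to be read. LOXL3 had the largest change. P3H2, a prolyl 3-hydroxylase of basement membrane collagen, rose by 0.82 on the log2 scale, and its scaffold relative P3H4 fell by 0.60 (edgeR adjusted p = 2.57e-05 and 6.20e-08). COLGALT1, which adds galactose to hydroxylysine, fell by 0.69 (edgeR adjusted p = 8.59e-10). Among 10 genes of procollagen folding and export, 2 were higher and 5 lower, with a median of -0.24 and no change beyond 2-fold. TMEM38B, a channel of the endoplasmic reticulum membrane (-0.69), FKBP14, a prolyl isomerase (-0.52), and SEC24D, a coat protein of export vesicles (-0.45), fell, and MIA3, the receptor that loads procollagen into these vesicles, rose by 0.38 (edgeR adjusted p between 1.71e-07 and 5.04e-05).

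The substrates were followed in the same way. Of 21 genes of collagen chains and elastin, 16 were tested; 13 were higher and 2 lower, and 8 of the 13 had a log2-fold change of at least 1. The median log2-fold change was 1.08. COL5A1, a chain that starts fibrils, rose from 17.9 ± 6.65 to 116 ± 10.8 CPM (log2-fold change 2.70), COL6A2 from 5.03 ± 0.741 to 25.5 ± 1.73 CPM (2.34), COL1A1 from 3.76 ± 1.17 to 18.0 ± 2.02 CPM (2.26) and COL4A6 from 1.18 ± 0.416 to 4.48 ± 0.288 CPM (1.93; SD, n = 3 in each case, edgeR adjusted p between 6.09e-12 and 1.09e-06). COL1A2, the usual partner of COL1A1 in type I collagen, had at most 9 counts in any library. The 2 genes that fell, named after their values were seen, were COL12A1 (-0.86) and COL8A1 (-0.50; edgeR adjusted p = 1.43e-09 and 1.57e-06). Among 8 genes of procollagen processing only 3 were tested. PCOLCE, an enhancer of the C-proteinase, rose by 1.95 and BMP1, the C-proteinase that also activates LOX, by 1.10, while its relative PCOLCE2 fell by 0.93 (edgeR adjusted p between 1.22e-10 and 3.81e-05).

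Genes that supply the cofactors were mixed. Of 6 genes tested, 2 were higher and 4 lower. ATP7A, the pump that loads copper onto lysyl oxidases in the secretory pathway, rose from 9.42 ± 0.712 to 26.5 ± 1.40 CPM (SD, n = 3), a log2-fold change of 1.49, and its relative ATP7B rose by 0.93. SLC31A2, a copper transporter, fell by 0.60, and SLC23A2, a transporter of ascorbate, fell from 106 ± 5.99 to 54.6 ± 1.40 CPM (SD, n = 3), a change of -0.95 (edgeR adjusted p between 9.95e-11 and 0.000163 for the 4 genes). SLC23A1, the other ascorbate transporter, had 1 count in all libraries together.

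**Figure D4:**
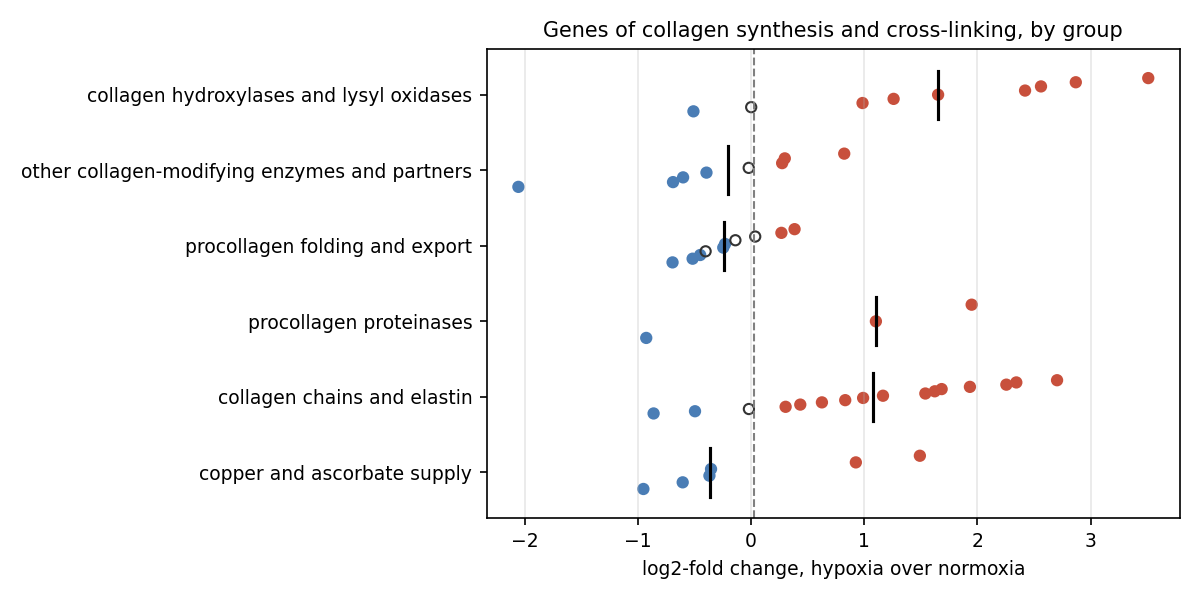
Log2-fold change of hypoxia over normoxia (horizontal axis) of every tested gene in 6 groups; each point is a gene, red for higher, blue for lower and open for not past an adjusted p-value of 0.05 (edgeR quasi-likelihood test), the short black lines are group medians and the dashed line is the median of all genes tested. The medians of the hydroxylases and oxidases (1.65), the collagen chains (1.08) and the proteinases (1.10, from 3 genes) lie right of 0, and the other 3 groups lie left of it.

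For the 3 members with the largest changes, the genes with the most similar profile over the 6 libraries were listed, by the distance between log2 CPM after centring each gene, among 11573 other genes. The nearest to LOX were BHLHE40, TP53INP1 and PNRC1, with distances of 0.133 to 0.233. PLOD2 lay nearest to KDM4B, AHNAK2 and NAV1 (0.118 to 0.150), and LOXL4 to LINC00649, HOXA13 and HLA-F-AS1 (0.189 to 0.242). BHLHE40 encodes a transcriptional repressor and KDM4B a histone demethylase. The distance includes the difference between the 2 conditions, so genes with a change of like size lie near each other.

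Whether the counting used the strand is not stated, so genes that share exons with a member were looked up in GENCODE v29. LOX shares 138 exonic bases with SRFBP1, a gene of the opposite strand that fell from 12.7 ± 0.287 to 5.24 ± 0.0312 CPM (SD, n = 3), against the direction of LOX. PLOD3 shares 429 bases with the oppositely oriented ZNHIT1, whose log2-fold change was 0.25, against the direction of PLOD3. LOXL2 shares 120 bases with ENTPD4 on the same strand, and ENTPD4 rose in the same direction as LOXL2, from 42.8 ± 1.30 to 74.1 ± 2.14 CPM (SD, n = 3), a log2-fold change of 0.79 (edgeR adjusted p = 1.02e-09), where LOXL2 had 197 and 472 CPM. The part of shared reads in these values was not tested. LOXL1 shares 335 bases with the antisense gene LOXL1-AS1, which had more counts than LOXL1 in all 6 libraries (165, 251 and 186 under hypoxia; 152, 136 and 136 under normoxia), so the low counts of LOXL1 cannot be assigned to one strand. LOXL1-AS1 had a log2-fold change of 0.42 (edgeR adjusted p = 0.0203), which did not pass without hypoxia replicate 2 (adjusted p = 0.11) or normoxia replicate 1 (0.0906). Further genes of the opposite strand overlap P4HA1 (AL731563.2, 47 bases), P4HA2 (P4HA2-AS1, 548 bases), P4HA3 (P4HA3-AS1, 38 bases), LOXL4 (AL139241.1, 152 bases) and LOXL2 (AC090197.1, 178 bases). These 5 genes are not listed in the count table, so their levels were not analysed here. P4HA3 also shares 166 bases with PPME1 of the opposite strand, which had 3609 to 6217 counts per library. PLOD1 and PLOD2 share no exonic bases with another gene in this annotation.

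The annotation deposited beside the counts places all 10 members under the Reactome terms "Collagen formation" and "Extracellular matrix organization". The 6 hydroxylases carry the GO terms for iron and ascorbate binding, and the 4 oxidases that for copper binding. The GO term "response to hypoxia" is attached to PLOD1, PLOD2 and LOXL2, which all rose, and not to LOX, LOXL4 or P4HA1, which rose more than LOXL2.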

How the data were processed

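Genes were counted in 6 RNA-seq libraries made with a SMARTer mRNA kit. The authors deposited raw counts of reads per gene, as whole numbers without normalization, and FPKM of the same genes. For 21775 of the 21776 genes, all 10 members among them, the FPKM follow within 0.001% from the count, a single length per gene and the library total. The aligner, annotation, counting tool and strand setting are not given in the sources used here. The submitters' processing notes list GRCm38 and mm10, which are mouse builds, while the gene symbols and Entrez numbers are human, so the only coordinates given are those of RefSeq promoters.

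Counts were tested with the quasi-likelihood F test of edgeR 4.0.16 (R 4.3.3) on 14255 genes kept by filterByExpr, with TMM scaling, no covariate and Benjamini-Hochberg adjustment over all of them (threshold 0.05). SE was taken as the absolute log2-fold change over the root of F. Profiles were compared on log2 CPM with 2 as the prior count. The common biological coefficient of variation was 0.0685. Levels at or under 3 counts in a library were treated as not measurable. FPKM with a mean of at least 1 were tested with limma 3.58.1 on log2(FPKM + 1), and shares of families by exact permutation tests. Replicates differed by more than sampling noise (5.11 to 11.5 as chi-square over genes), and no library was merged with another. The edgeR, DESeq2 and limma steps were first tested on simulated data.

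The members and gene lists were chosen with earlier results of these data known. Named genes were all members and, per list, the 4 largest changes past the threshold without overlap between the conditions, with P4HB and LOXL3 always named, the neighbours in profile and the antisense genes; other names were added after their values were seen. One marker gene is not reported here. Alternatives comprised RLE size factors, the Wald test of DESeq2 1.42.0, no filter, at least 10 counts in every library, a log2-fold change of at least 1, the replicate number as a block, leaving out single libraries, and, for FPKM, a pseudocount of 0.1, no filter and CPM without length.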

Additional observations from a re-analysis of the deposited data

How the results depend on the processing

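Counts of 7 members higher and 1 lower were obtained under every other normalization, test and filter, with the replicate block, with each library left out in turn and, from FPKM, with a pseudocount of 0.1 or no filter. Over 11 alternatives for each of 9 members, 94 values kept their direction and their side of the threshold, and the other 5 were changes of sign of LOXL1, whose value lies at 0: -0.041 without a filter, -0.028 with the replicate block, and between -0.26 and 0.15 when single libraries were left out (-0.26 without hypoxia replicate 3, -0.044 without normoxia replicate 1, -0.039 without normoxia replicate 3). With one library left out, LOX ranged from 3.43 to 3.61, PLOD2 from 2.75 to 3.06, LOXL4 from 2.37 to 2.84, P4HA1 from 2.35 to 2.52, LOXL2 from 1.15 to 1.44 and PLOD3 from -0.55 to -0.51. P4HA2 ranged from 0.93 to 1.01 in these fits, so whether it reached a log2-fold change of 1 depended on single libraries. The filter of at least 10 counts in every library moved the log2-fold changes of shared genes up by a median of 0.077. Libraries with the same replicate number did not deviate together (correlations of 0.018, -0.069 and 0.0012), so the numbers do not pair them; with the replicate block, 5456 genes were higher and 5419 lower, against 5595 and 5495, and no count of a list changed.

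A log2-fold change of at least 1 as a second threshold, which fewer genes pass by construction, left 2840 genes higher and 1498 lower among all genes, 0 members lower, 0 higher and 1 lower among the other enzymes and partners, 0 and 0 in folding and export, 0 lower among the proteinases, 8 higher and 0 lower among collagen chains, 1 higher and 0 lower in cofactor supply, and 0 antisense genes higher. The call of LOXL1-AS1 was also lost without hypoxia replicate 2 or normoxia replicate 1, so the antisense count was 0 to 1 when single libraries were left out. Collagen chains higher were 12 in place of 13 when replicate 1 or 3 of hypoxia or replicate 2 of normoxia was left out, and genes of folding and export higher were 3 in place of 2 with at least 10 counts in every library. Without division by gene length, the hypoxia minus normoxia difference in share became 23.3 percentage points for P4HA1 and -23.2 for P4HA2 (from 19.1 and -19.1), 6.11 for PLOD1 (from 9.72), 11.04 for LOX (from 8.21), -6.38 for LOXL2 (from -4.55), -5.75 for LOXL3 (from -4.27) and 2.05 for LOXL4 (from 1.82), and that of the ratio of alpha subunits to P4HB 0.361 (from 0.297). None of these changed sign; longer genes weigh more without the division. Depth limits P4HA3, with at most 2 counts in a library, and small changes of LOXL1.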

Other observations

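Within the normoxia group, replicate 3 had the highest level of all 7 members that were higher under hypoxia, and the lowest level of PLOD3. Its level was 1.72 times the mean of the other normoxia libraries for LOXL4, 1.46 times for PLOD2, 1.43 times for LOXL2, 1.27 times for LOX, 1.25 times for P4HA1, 1.17 times for PLOD1 and 1.09 times for P4HA2, and 0.952 times for PLOD3. In the hypoxia response list, 12 of 14 genes were also highest in this library among the normoxia libraries, with 2.69 times the mean of the others for NDRG1, 2.28 times for CA9 and 2.23 times for EGLN3. Of all 5595 genes that were higher under hypoxia, 58.6% were highest in normoxia replicate 3. Every member level in this library still lay on the normoxia side of the hypoxia libraries, LOXL1 and P4HA3 aside. These values were noticed after the data had been seen, and no cause was tested.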
